A study of Homo sapiens with 7 samples.

Results

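The chemokines CXCL9, CXCL10, CXCL11 and CCL5 were followed in Huh7, a human hepatoma cell line, after treatment with a type I or a type III interferon. The 4 genes were found by gene symbol in the array's probe table, which gave 5 probes of 31741, with 1 probe each for CXCL9, CXCL10 and CXCL11 and 2 for CCL5, and they stand among 18336 genes with a single symbol per probe. All 5 probes were kept, whether bright or dim. The cells were left untreated (0 h) or received 1 of 3 interferons for 6 h or 16 h: IFN-α (10 IU/ml), IFN-λ1, also called IL29 (20 ng/ml), or IFN-λ4 (20 ng/ml). Total RNA was amplified, labelled with the dye Cy5 and hybridised to 1 array per condition, so 7 arrays were compared. No condition was repeated, the untreated cells were sampled at 0 h only, and the doses of IFN-α and the IFN-λ were in different units.

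Chemokines are small secreted proteins that guide the movement of leukocytes through receptors on the leukocyte surface. CXCL9, CXCL10 and CXCL11 all bind CXCR3, a receptor of activated T cells and natural killer cells, and their genes are known targets of interferon signalling, with interferon-γ the classical inducer. CCL5, also called RANTES, binds receptors that include CCR1 and CCR3 and attracts T cells, monocytes and eosinophils. In the liver, hepatocytes can produce these chemokines during viral hepatitis, and the receptor-bearing lymphocytes follow them into the tissue. IFN-α acts through IFNAR1 and IFNAR2, while IFN-λ1 and IFN-λ4 act through IFNLR1 and IL10RB, and both receptors activate a complex that holds STAT2 and IRF9 and binds interferon-stimulated response elements (ISREs). NF-κB proteins and IRF1 are also known activators of these chemokine genes.

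The genes of the CXCR3 ligands lie next to one another on human chromosome 4 and CCL5 lies on chromosome 17. The 250 bases upstream of each CXCR3 ligand's start, from RefSeq on build GRCh38.p14, are shown because these 3 neighbouring genes gave different values on the arrays. They are the minus strand, 5′ to 3′, of chr4:76007510-76007759 for CXCL9, chr4:76023498-76023747 for CXCL10 and chr4:76036071-76036320 for CXCL11. Capitals mark matches on either strand to the letters of an ISRE (GAAA, then 2 bases of any kind, then GAAA), of a γ-activated sequence that binds STAT dimers (TTCNNNGAA), or of the NF-κB consensus.
CXCL9: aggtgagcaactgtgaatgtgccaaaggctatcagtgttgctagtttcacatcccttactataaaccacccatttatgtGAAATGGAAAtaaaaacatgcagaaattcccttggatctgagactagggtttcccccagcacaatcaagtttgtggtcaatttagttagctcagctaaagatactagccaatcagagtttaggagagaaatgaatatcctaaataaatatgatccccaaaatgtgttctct
CXCL10: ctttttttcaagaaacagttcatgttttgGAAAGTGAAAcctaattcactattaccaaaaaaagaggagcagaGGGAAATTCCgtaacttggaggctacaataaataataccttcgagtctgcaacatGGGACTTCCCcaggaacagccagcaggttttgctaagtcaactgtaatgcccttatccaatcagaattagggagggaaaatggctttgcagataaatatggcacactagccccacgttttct
CXCL11: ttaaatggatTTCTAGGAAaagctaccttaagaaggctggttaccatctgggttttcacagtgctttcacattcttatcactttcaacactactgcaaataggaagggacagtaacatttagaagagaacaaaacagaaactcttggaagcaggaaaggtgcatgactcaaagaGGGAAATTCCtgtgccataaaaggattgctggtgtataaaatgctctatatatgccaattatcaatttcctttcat
The CXCL10 window held 1 ISRE match, GAAAGTGAAA, at 221 to 212 bases upstream of the start, and 2 NF-κB matches, GGGAAATTCC at 177 to 168 and GGGACTTCCC at 122 to 113 bases upstream. The CXCL9 window held 1 ISRE match, GAAATGGAAA, at 171 to 162 bases upstream, and no NF-κB match. The CXCL11 window held 1 γ-activated sequence match, TTCTAGGAA, at 240 to 232 bases upstream and 1 NF-κB match, GGGAAATTCC, at 76 to 67 bases upstream, with no match to the ISRE letters. Of 35116 promoter windows of the same length, 3.02% held the ISRE letters, 6.57% the γ-activated sequence and 9.96% the NF-κB consensus. No motif overlapped another in these 3 windows. These matches are descriptions of letters and were not tested for binding.

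The array medians lay between 494 and 633 intensity units and the upper quartiles between 3081 and 3415. Intensities are given as deposited, and differences are on the log2 scale after quantile normalization, where a difference of 1 is 2-fold. The hepatocyte markers checked the label of the cells: 9 of 10 listed genes had a probe, their intensities ran from 77021 to 370702 on the treated arrays, and none was 2-fold from untreated on any array. A probe is called dim where its mean lay below the 30th percentile of all probes, which held for CXCL9 (percentile 23.9) and CXCL11 (12.4) but not for CXCL10 (53.4) or for the CCL5 probes (77.6 and 61.0). A bulk measurement cannot tell a change in cell number from a change in RNA per cell.

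Of the 4 genes CXCL10 differed most from untreated on both IFN-α arrays and on both 16 h IFN-λ arrays, though not on the 6 h IFN-λ arrays, and its level differed between the IFN-α arrays and all others. It read 245 units in untreated cells, 8348 after 6 h of IFN-α and 2843 after 16 h. With IFN-λ1 it read 359 at 6 h and 513 at 16 h. With IFN-λ4 it read 248 at 6 h and 323 at 16 h. Both IFN-α arrays stood above every other array, and the 4 IFN-λ arrays stood between the untreated array and the IFN-α arrays. On its own array the probe moved from percentile 34.9 in untreated cells to 86.1 after 6 h of IFN-α and 73.3 after 16 h, and it lay between percentiles 38.8 and 48.9 on the IFN-λ arrays.

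Against untreated cells CXCL10 was 37.3-fold higher after 6 h of IFN-α, a difference of 5.22 log2 units and the 32nd highest of all 31741 probes, and 12.9-fold higher at 16 h (3.69 log2 units, rank 113). With IFN-λ1 it was 1.48-fold higher at 6 h and 2.35-fold higher at 16 h, ranks 1760 and 269. With IFN-λ4 it was 1.25-fold higher at 6 h and 1.52-fold higher at 16 h, ranks 6781 and 1204. In order of normalized level the arrays ran IFN-α 6 h, IFN-α 16 h, IFN-λ1 16 h, IFN-λ4 16 h, IFN-λ1 6 h, IFN-λ4 6 h and untreated. The step between IFN-α 16 h and IFN-λ1 16 h was 2.45 log2 units and that between the IFN-α arrays was 1.54, while each of the other steps was 0.63 or less. The IFN-λ4 16 h and IFN-λ1 6 h arrays were 0.034 apart. With no repeated condition the spread between cultures is unknown, so the order among the IFN-λ arrays has no replicate check. Without rescaling of the arrays, CXCL10 with IFN-λ4 at 6 h was 0.016 log2 units from untreated.

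CXCL9, the ligand best known as a target of interferon-γ, showed no such response. Its probe read 118 units in untreated cells. At 6 h and 16 h in turn it read 105 and 194 under IFN-α, 148 and 115 under IFN-λ1, and 117 and 75.1 under IFN-λ4. The treated arrays lay on both sides of the untreated one. No difference reached 2-fold: the highest was 0.61 log2 units, on the IFN-α 16 h array, and the lowest was -0.33, on the IFN-λ4 16 h array. The probe was dim on these arrays, and with IFN-α at 6 h its difference was 0.11 after quantile normalization and -0.17 with the values as deposited.

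CXCL11 was also dim. It read 50.9 units in untreated cells, and, early and late, 94.4 and 82.4 under IFN-α, 61.4 and 61.6 under IFN-λ1, and 43.7 and 45.6 under IFN-λ4. The IFN-α arrays were the highest of the 7, as for CXCL10, but all 7 readings lay at the bottom of the scale. Against untreated, CXCL11 was 2.23-fold higher after 6 h of IFN-α (1.16 log2 units) and 0.55 log2 units higher after 16 h. It was 0.28 and 0.47 higher with IFN-λ1, and 0.15 and 0.18 higher with IFN-λ4, which became 0.22 and 0.16 lower with the values as deposited. With the values as deposited the IFN-α 6 h difference was 0.89 log2 units, below 2-fold, and where low values were raised to the 30th percentile of all values it was 0.0.

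The 2 CCL5 probes gave different pictures. The brighter probe read 3666 units in untreated cells, 3964 after 6 h of IFN-α and 14079 after 16 h, 1938 and 2378 under IFN-λ1, and 5300 and 2945 under IFN-λ4. It was highest by a wide margin on the IFN-α 16 h array and lowest on both IFN-λ1 arrays. The dimmer probe read 1023 units in untreated cells, 1220 and 1371 with IFN-α, 1237 and 950 under IFN-λ1, and 1461 and 1103 under IFN-λ4. It spanned a narrow range, and its highest array was IFN-λ4 at 6 h rather than IFN-α at 16 h.

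On the brighter probe CCL5 was 4.26-fold higher than untreated after 16 h of IFN-α (2.09 log2 units) and 0.18 log2 units higher at 6 h. It was 1.96-fold lower with IFN-λ1 at 6 h and 0.61 log2 units lower at 16 h, and with IFN-λ4 it was 0.56 higher at 6 h and 0.31 lower at 16 h. On the dimmer probe every difference lay between -0.0038 and 0.67, and the IFN-α 16 h difference was 0.43. The ratio of the brighter to the dimmer probe's intensity was 3.58 on the untreated array, 10.3 with IFN-α at 16 h, and between 1.57 and 3.63 on the other 5 arrays. Genes with exactly 2 probes above the dim level numbered 3118. Of these, 3.98% differed between their probes in the IFN-α 16 h difference by as much as CCL5 did (1.66 log2 units). With IFN-λ1 at 6 h, 2.21% differed by as much as CCL5 did there. Averaged over both probes, the IFN-α 16 h difference of CCL5 was 1.26 log2 units. Which probe follows the CCL5 transcript better was not tested.

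**Figure D1:**
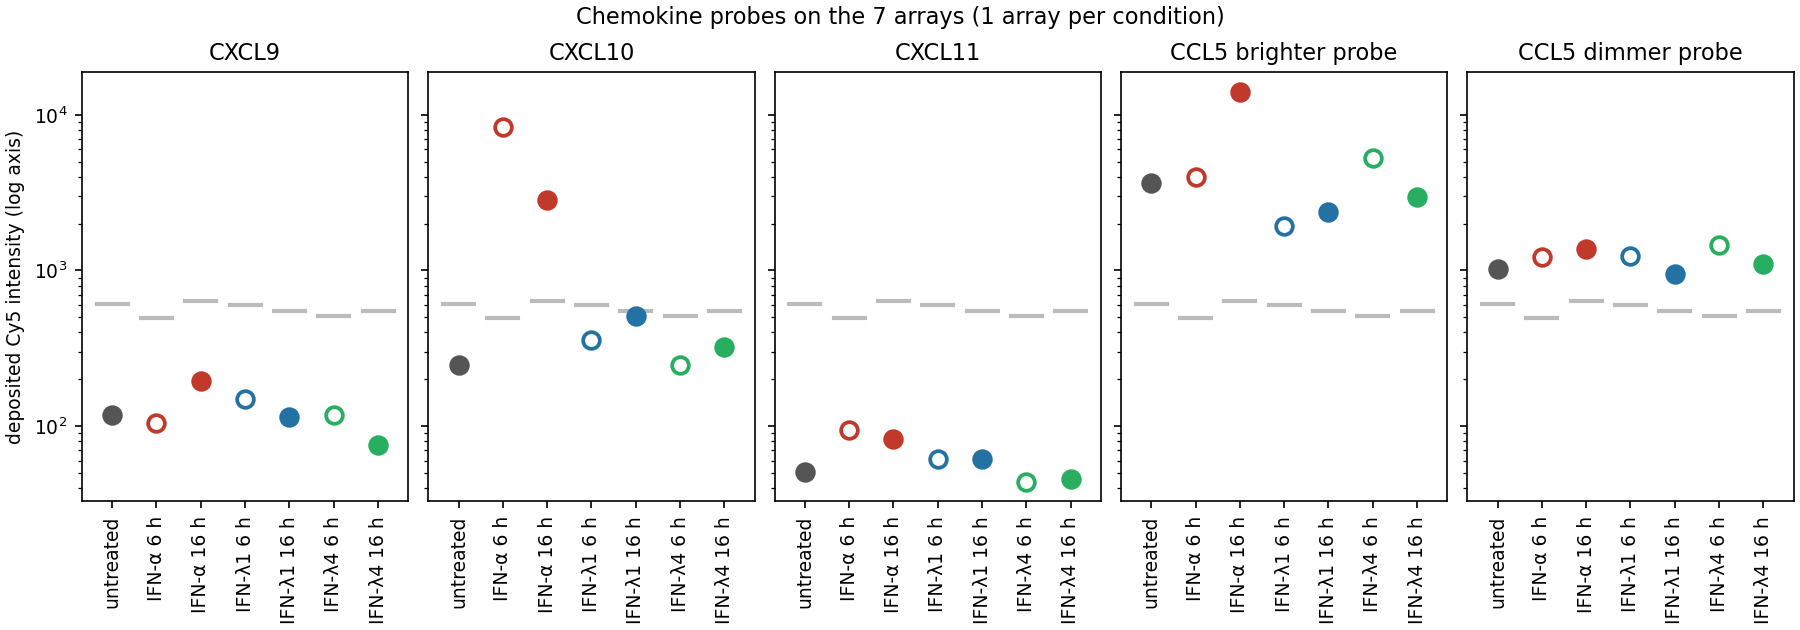
Deposited Cy5 intensity (log axis) of the 5 chemokine probes on each of the 7 arrays, 1 point per array with open circles for 6 h and filled circles for 16 h and untreated, and a grey bar at each array's median. CXCL10 stands at 8348 and 2843 on the IFN-α arrays and at 513 or below elsewhere, CXCL9 and CXCL11 stay below the medians, and the brighter CCL5 probe reaches 14079 on the IFN-α 16 h array.

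Counted as genes at least 2-fold from the untreated array, 2 of the 4 chemokines were higher with IFN-α at 6 h (CXCL10 and CXCL11), where 4.01% of all probes were, and 2 at 16 h (CXCL10 and CCL5 by its brighter probe), where 6.12% of all probes were. With IFN-λ1, 0 were higher at 6 h (1.33% of all probes) and 1 at 16 h, CXCL10 (1.37%). With IFN-λ4, 0 were higher at 6 h (2.25%) or at 16 h (1.28%). None of the 4 was 2-fold lower on any array, where 3.71% and 3.19% of all probes were with IFN-α at the early and the late time, 1.04% and 0.614% on the IFN-λ1 arrays, and 2.37% and 0.643% on the IFN-λ4 arrays. None was at least 2-fold higher on all 6 treated arrays, as 0.444% of all probes were. These calls compare single arrays and carry no p-value.

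**Figure D2:**
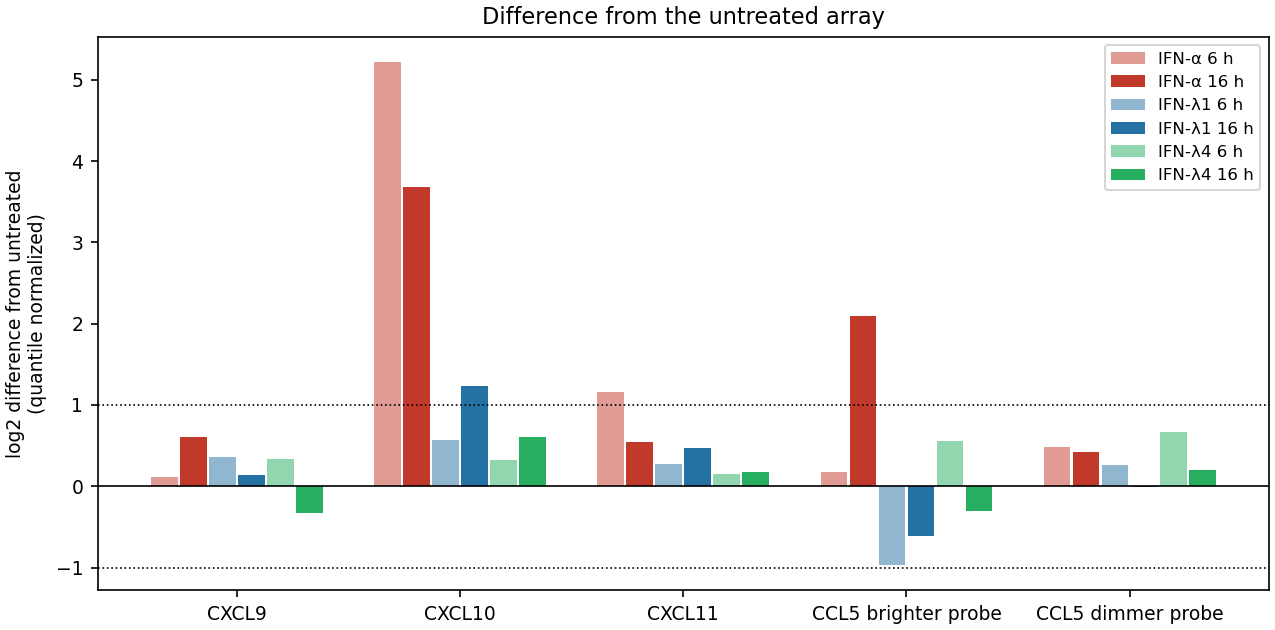
Log2 difference from the untreated array after quantile normalization for each chemokine probe, 1 bar per treated array with lighter bars for 6 h, and dotted lines at 2-fold. The CXCL10 bars reach 5.22 and 3.69 with IFN-α and 1.23 or less with IFN-λ, while the 2 CCL5 probes differ at IFN-α 16 h (2.09 and 0.43).

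The comparison of type I with type III interferon asked whether the IFN-α arrays differed from the IFN-λ arrays across both times. limma was fitted to all 31741 probes on the 6 treated arrays with time as a block, on 2 residual degrees of freedom before moderation. The spread it uses holds array error and any difference between the interferons in their time change. CXCL10 was 3.77 ± 0.44 log2 units (SE) higher with IFN-α than with the IFN-λ, or 13.7-fold, with a 95% interval from 2.71 to 4.84. Both IFN-α arrays were above all 4 IFN-λ arrays. Its unadjusted p was 0.000115 and its adjusted p was 0.0733 (limma, Benjamini-Hochberg), above the threshold of 0.05. The adjusted p lay below 0.05 under 4 of 7 other settings of scaling, filter or model (0.0119 to 0.347 over the 7) and without 4 of the 6 arrays in turn (0.00153 to 0.0771), with the difference between 2.77 and 4.77 log2 units throughout.

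The other chemokines did not pass this comparison either. CCL5 was 1.46 ± 0.52 log2 units higher with IFN-α on its brighter probe (adjusted p = 0.226, limma) and 0.18 ± 0.18 on its dimmer probe (adjusted p = 0.656, limma). CXCL11 was 0.58 ± 0.22 higher (adjusted p = 0.244, limma), and CXCL9 was 0.23 ± 0.25 higher (adjusted p = 0.669, limma). None of the 5 probes was called, where 0.11% of all probes were, and 3 of the 5 had an unadjusted p under 0.05, where 17.9% of all probes did. Without the IFN-α 6 h array the brighter CCL5 probe was 2.55 log2 units higher with IFN-α and was called (adjusted p = 0.0101, limma), so its value turned on which IFN-α array was kept.

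At each time the CXCL10 level was set side by side between interferons. IFN-α was 25.1-fold above IFN-λ1 and 29.8-fold above IFN-λ4 at 6 h, and 5.48-fold and 8.48-fold above them at 16 h. The gap between the interferon types was thus smaller at 16 h than at 6 h. The brighter CCL5 probe was 2.21-fold higher with IFN-α than with IFN-λ1 at 6 h but 1.31-fold lower than with IFN-λ4, and at 16 h it was 6.49-fold and 5.28-fold higher.

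IFN-λ4 and IFN-λ1 were given at the same mass dose. CXCL10 was 1.18-fold lower with IFN-λ4 than with IFN-λ1 at the early time and 1.55-fold lower at the late one, and the brighter CCL5 probe was 2.89-fold higher with IFN-λ4 at 6 h and 1.23-fold higher at 16 h. In limma with time as a block the CXCL10 difference was -0.44 ± 0.51 log2 units, with a 95% interval from -1.67 to 0.80 (adjusted p = 0.99), and it was 0.21 without the IFN-λ1 16 h array. The brighter CCL5 probe differed by 0.91 ± 0.59, with an interval from -0.53 to 2.36 (adjusted p = 0.947, limma). No chemokine probe was called, where 0.0063% of all probes were, and none had an unadjusted p under 0.05, where 4.74% did. Both intervals include 0 and reach beyond 2-fold, so these arrays do not show that the 2 IFN-λ act alike on these genes.

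The time course of CXCL10 ran in opposite directions in the 2 interferon types. From 6 h to 16 h the CXCL10 level was 2.90-fold lower with IFN-α (-1.54 log2 units) and higher with both IFN-λ, by 0.66 log2 units with IFN-λ1 and 0.28 with IFN-λ4. The brighter CCL5 probe was 3.77-fold higher at 16 h than at 6 h with IFN-α, 0.36 log2 units higher with IFN-λ1 and 0.87 lower with IFN-λ4. The dimmer CCL5 probe was 0.060 log2 units lower at 16 h than at 6 h with IFN-α, so the higher late reading was seen on 1 of the 2 CCL5 probes. CXCL11 was 0.61 log2 units lower and CXCL9 0.50 higher at 16 h with IFN-α, both on dim probes.

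The difference between the time change with IFN-α and that with both IFN-λ was tested in limma with the 2 IFN-λ as 2 arrays of each time. It was -2.01 ± 0.42 log2 units for CXCL10, with a 95% interval from -3.03 to -0.98 and an adjusted p of 0.0907, and 2.17 ± 0.80 for the brighter CCL5 probe (adjusted p = 0.229, limma). Each IFN-α cell held 1 array, assumed to vary like the IFN-λ cells. None of the 5 probes was called, where 0.167% of all probes were, and 2 had an unadjusted p under 0.05, where 18.3% of all probes did. Without the IFN-λ1 6 h array the brighter CCL5 probe was called (2.93 log2 units, adjusted p = 0.0267, limma).

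Averaged over the 3 interferons with a block for interferon, 16 h and 6 h differed by -0.20 ± 0.41 log2 units for CXCL10 (adjusted p = 0.873, limma), and by 0.47 without either IFN-α array. None of the 5 chemokine probes was called and none had an unadjusted p under 0.05. Of all probes 0.0% were called in this limma comparison, while 14.0% (4446) had an unadjusted p under 0.05. Averaged over all 6 treated arrays, CXCL10 was 1.94 ± 1.62 log2 units above the untreated array, with a 95% interval from -1.71 to 5.59 (unadjusted p = 0.261, limma). That spread holds the gap between the IFN-α and IFN-λ arrays, and although CXCL10 was higher than untreated on 6 of 6 treated arrays, no chemokine probe was called, where 0.0599% of all probes were. None had an unadjusted p under 0.05, where 2.56% of all probes did.

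CXCL10 was next set among all genes. Of 18336 genes, dim ones included, 421 were at least 2-fold higher than untreated on both IFN-α arrays. Of these, 202 were also at least 2-fold higher on 1 or more IFN-λ arrays. CXCL10 belonged to both counts, the second through IFN-λ1 at 16 h. Its mean difference was 4.45 log2 units on the IFN-α arrays and 0.68 on the IFN-λ arrays. The gap between these means was the 9th largest of the 14075 genes above the dim level.

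**Figure D3:**
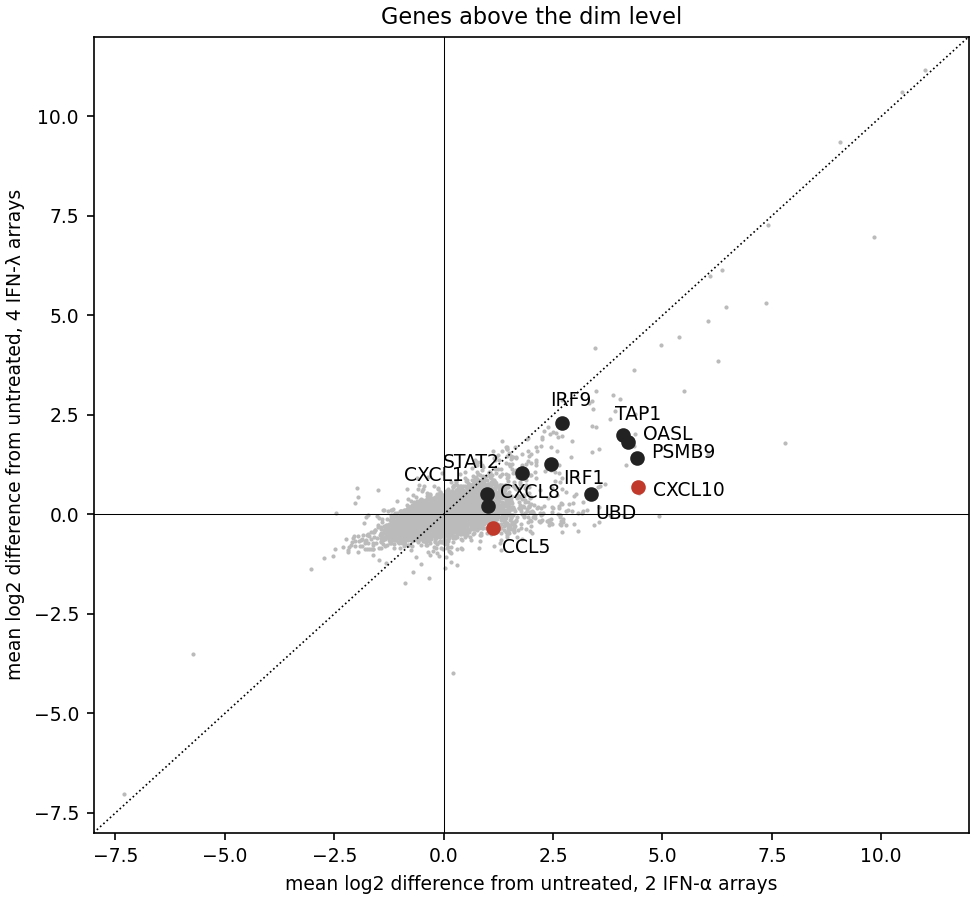
Mean log2 difference from untreated on the 4 IFN-λ arrays against that on the 2 IFN-α arrays for 14075 genes above the dim level (grey points), with equal differences on the dotted diagonal. CXCL10 lies far below the diagonal at 4.45 and 0.68 and IFN-signalling gene IRF9 lies near it, and CCL5 is drawn from its brighter probe.

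The genes whose 6 differences from untreated lay closest to those of CXCL10, by root mean square distance over the 6 treated arrays, were PSMB9 (0.829 log2 units), SLC30A2 (0.846), SLC15A3 (0.956), OASL (1.06), UBD (1.06), ARHGAP31 (1.10), TAP1 (1.12) and HERC3 (1.16). PSMB9 is a subunit of the immunoproteasome and TAP1 a chain of the peptide transporter that loads MHC class I. PSMB9 was 4.33 and 4.49 log2 units above untreated on the early and late IFN-α arrays and between 1.03 and 1.57 above on the IFN-λ arrays. UBD, the ubiquitin-like protein FAT10, was 2.97 and 3.76 above with IFN-α and between 0.14 and 0.89 on the IFN-λ arrays. TAP1, like CXCL10, was higher with IFN-α at 6 h (4.81) than at 16 h (3.40), and lay between 1.77 and 2.11 on the IFN-λ arrays. Even the nearest gene was over 0.8 log2 units from CXCL10 in root mean square.

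In untreated cells PSMB9 read 433 units, while SLC30A2 read 73.8, SLC15A3 95.7 and ARHGAP31 133, so these 3 were low without interferon and counted as above the dim level through their mean over all arrays. The 8 genes were picked for their likeness to CXCL10 on the same arrays, so no test of them is given.

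For the brighter CCL5 probe the nearest genes were JHY (0.204 log2 units), TAS2R1 (0.249), CCDC7 (0.266), TMEM238 (0.314), H2BC18 (0.325), OR2T6 (0.351), PRICKLE1 (0.359) and ERC2 (0.376). These distances do not compare directly with those found for CXCL10. The CXCL10 differences from untreated ran from 0.33 to 5.22 log2 units, and those of this CCL5 probe from -0.97 to 2.09. The dimmer CCL5 probe was not searched. TAS2R1 is a bitter taste receptor and OR2T6 an olfactory receptor. TAS2R1 was 2.11 log2 units above untreated on the IFN-α 16 h array and 0.88 below with IFN-λ1 at 6 h, close to the 2.09 and -0.97 of CCL5. No gene could be among the 8 of both CXCL10 and CCL5, because their own differences lay too far apart, so the lack of a shared gene is no result.

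The receptors of these chemokines were measured in the same cells. The 5 analysed here were CXCR3, CCR1, CCR3, ACKR1 and ACKR3. CXCR3 read 1564 units in untreated cells, 1372 and 1766 with IFN-α, 1490 and 1251 under IFN-λ1, and 958 and 1896 under IFN-λ4. Its differences from untreated lay between -0.56 and 0.32 log2 units, with the lowest and the highest array both from IFN-λ4. CCR1 was 0.70 log2 units above untreated on the IFN-α 6 h array and 0.91 below on the IFN-α 16 h array. CCR3 lay between 0.31 below and 0.47 above, and the scavenging receptors ACKR1 and ACKR3 stayed within 0.62 log2 units. No receptor was 2-fold from untreated on any array, and none passed any of the 5 limma comparisons. Over all probes 1.28% to 6.12% were 2-fold higher by array, 0.614% to 3.71% were 2-fold lower, and at most 0.167% passed a limma comparison.

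Of 13 other CXC chemokines, all with a probe, 4 were at least 2-fold higher than untreated with IFN-α at 6 h (CXCL1, CXCL2, CXCL6 and CXCL8), where 4.01% of all probes were. At 16 h 1 was, CXCL6, where 6.12% of all probes were. On the 4 IFN-λ arrays 0 were, where 1.28% to 2.25% of all probes were. These 4 chemokines attract neutrophils through CXCR2, as do CXCL3, CXCL5 and PPBP, which were 0.36, 0.70 and -0.14 log2 units from untreated on the IFN-α 6 h array. No theme was tested for these genes. CXCL8 read 977 units in untreated cells, 2686 and 1270 with IFN-α, 1178 and 726 under IFN-λ1, and 1497 and 982 under IFN-λ4. Against untreated with IFN-α at 6 h, CXCL8 was 3.10-fold, CXCL1 3.25-fold and CXCL2 3.27-fold higher. At 16 h these 3 lay between 0.27 and 0.39 log2 units above untreated, whereas CXCL10 was still 3.69 above. The list's median difference was 0.47 on the IFN-α 6 h array, against -0.020 over all probes. None of its genes passed a limma comparison, where at most 0.167% of all probes did.

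Of 26 listed CC, C and CX3C chemokines other than CCL5, 23 had a probe. With IFN-α at 6 h 0 were 2-fold from untreated, where 4.01% of all probes were higher and 3.71% lower. With IFN-α at 16 h 1 was higher (CCL17, 1.84 log2 units) and 1 lower (CCL20, -1.02), where 6.12% of all probes were higher and 3.19% lower. CCL11, an eosinophil attractant, was 1.27 log2 units above untreated with IFN-λ4 at 6 h and between 0.42 and 0.94 above on the other treated arrays. It was the 1 gene of the 23 that was 2-fold higher with IFN-λ4 at 6 h, where 2.25% of all probes were. With IFN-λ1 at 16 h 1 of the 23 was 2-fold lower, where 0.614% of all probes were. There were no other 2-fold calls in this list on the IFN-λ arrays. The list's median with IFN-α at 6 h was 0.20. CCL20, which binds CCR6, was the 1 gene of this list to pass a limma comparison: its time change with IFN-α fell below that with the IFN-λ by 1.64 ± 0.16 log2 units (adjusted p = 0.0411). CCL20 read 167203 units after 6 h of IFN-α and 68160 after 16 h, and between 134418 and 220946 on the IFN-λ arrays. CCL17 and CCL20 are named because of these values and not by the rule given with the processing.

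Some genes of the signalling chain above these chemokines were higher with every interferon. Of 19 listed genes, 18 had a probe with a single symbol and were analysed here. At least 2-fold above untreated were 4 and 2 of the 18 on the early and late IFN-α arrays, 3 and 3 on the IFN-λ1 arrays, and 4 and 2 on the IFN-λ4 arrays. Over all probes the shares were 4.01% and 6.12%, 1.33% and 1.37%, and 2.25% and 1.28% in the same order. At least 2-fold below untreated was 1 of the 18 on each IFN-α array and on the IFN-λ4 6 h array. On both IFN-λ1 arrays and the IFN-λ4 16 h array 0 were. The shares of all probes that were lower were 3.71% and 3.19%, 1.04% and 0.614%, and 2.37% and 0.643% in the same order of arrays as above. IRF9, the DNA-binding subunit of the complex that binds ISREs, read 7800 units in untreated cells, 66167 and 36298 with IFN-α, 47871 and 31091 under IFN-λ1, and 42115 and 34921 under IFN-λ4. All treated arrays were above untreated by 2.03 to 3.03 log2 units. IRF9 rose by 2.43 ± 0.32 log2 units over the 6 treated arrays (adjusted p = 0.0436, limma), the 1 gene of the list to pass in this comparison. The p-value holds no spread between untreated cultures.

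IRF1, a transcription factor that acts on the CXCR3 ligand genes, read 1613 units in untreated cells, 19777 and 3692 with IFN-α, 3759 and 3500 under IFN-λ1, and 4318 and 3670 under IFN-λ4. It stood highest on the IFN-α 6 h array, 3.63 log2 units above untreated, and lay between 1.16 and 1.49 above on the other 5. The NF-κB subunit RELB was 2.44 log2 units above untreated on the IFN-α 6 h array, 0.82 on the IFN-α 16 h array, and between 0.24 and 1.09 on the IFN-λ arrays. STAT2 was 2.64 above with IFN-α at 6 h and between 0.93 and 1.12 on the other 5 arrays. These 3 were highest on the array where CXCL10 was highest. At 16 h with IFN-α they lay at or near their IFN-λ levels, and CXCL10 lay above all its IFN-λ values. Whether these 3 genes act on CXCL10 in these cells was not tested. The adjusted p of the time change with IFN-α against the IFN-λ was 0.0529 for IRF1, 0.0566 for STAT2 and 0.156 for RELB (limma).

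**Figure D4:**
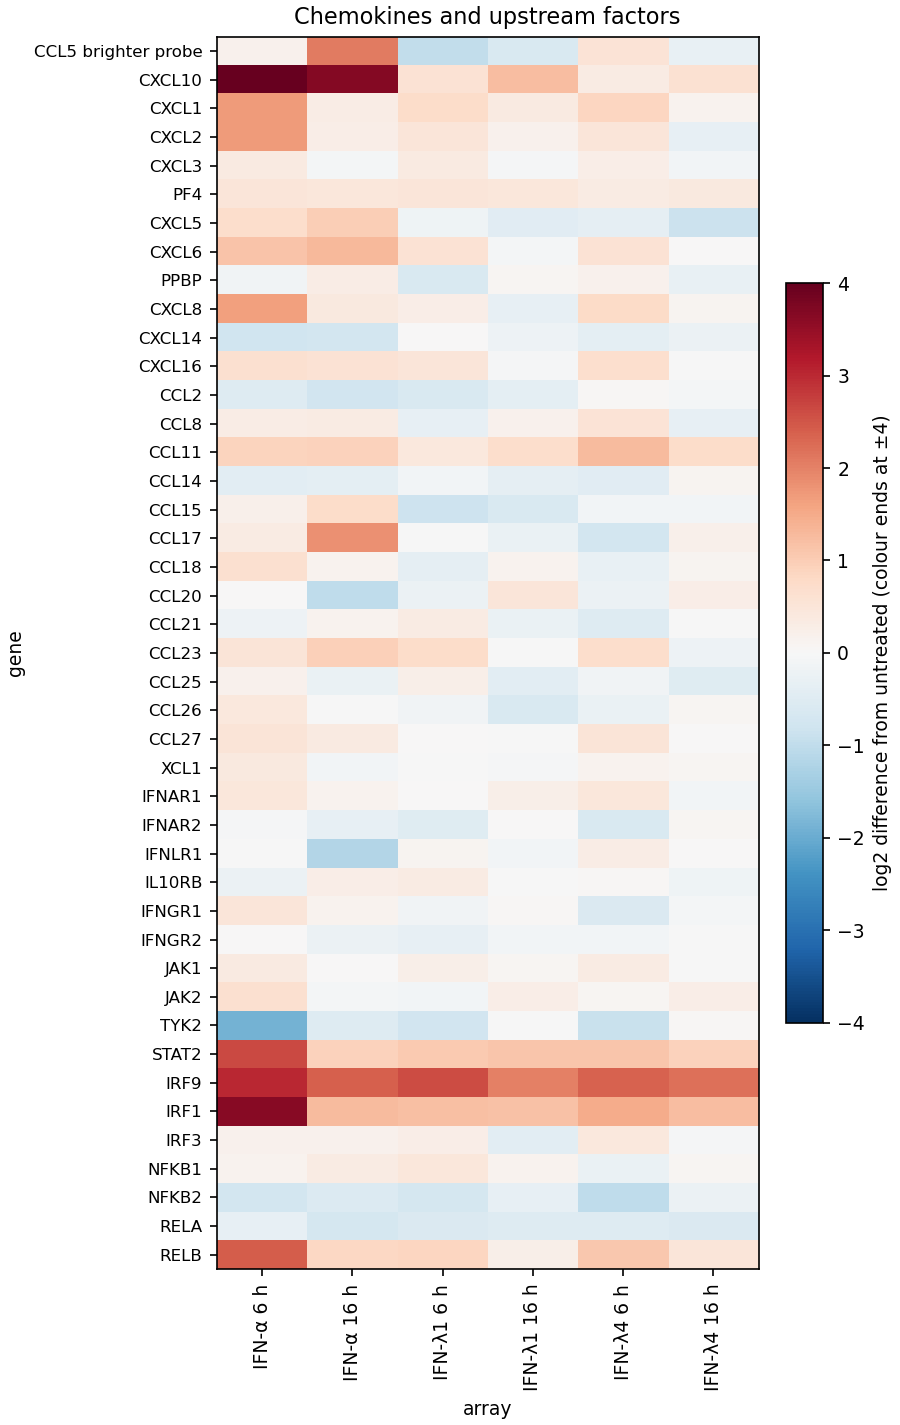
Log2 difference from untreated (colour, ending at 4 in either direction) for CCL5 (brighter probe), CXCL10, the other chemokines and the upstream signalling genes above the dim level, 1 column per treated array. CXCL10 is dark on both IFN-α columns, IRF1, STAT2, RELB and the chemokines CXCL1, CXCL2 and CXCL8 are darkest on the IFN-α 6 h column, and IRF9 is dark on every column.

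The cytokine ligands that could act on these genes were low. Of 9 listed, 8 had a probe and 3 were above the dim level. IFNG, the gene of interferon-γ, read 233 to 436 units over the 7 arrays and was below untreated on all 6 treated arrays, by 0.13 to 0.90 log2 units. IFNL1, a dim probe that read 37.7 units or less where it was 2-fold above untreated, was the 1 ligand past that fold. IFNA1 lay between 0.48 below and 0.24 above untreated, and IL1B between 0.52 below and 0.09 above. Among 7 genes that process or hold chemokines, DPP4, the protease that trims CXCL9, CXCL10 and CXCL11, stayed between -0.18 and 0.38 log2 units of untreated. MMP9, a gelatinase that also cleaves CXCR3 ligands, was 2.02 log2 units below untreated on the IFN-λ1 6 h array. The lowest reading of the 7 genes on that array was 66.4 units, near the bottom of the scale. SDC1, a heparan sulfate proteoglycan that can bind chemokines, was 1.12 log2 units below untreated with IFN-α at 16 h. At least 2-fold lower was 1 of the 7 on each of the IFN-λ1 6 h, IFN-α 16 h and IFN-λ4 6 h arrays. Over all probes 1.04%, 3.19% and 2.37% were lower on these arrays. No gene of these 2 lists passed a limma comparison, where at most 0.167% of all probes did.

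The chromosomal neighbours of the chemokine genes were looked up by position. Of the genes beside CXCL9, CXCL10 and CXCL11 on chromosome 4, 9 had a probe, and 0 were 2-fold from untreated with IFN-α at 6 h, where 4.01% of all probes were higher and 3.71% lower. At 16 h 1 was, where 6.12% were higher and 3.19% lower, so both counts lie near the share over all probes. It was ART3, 1.12 log2 units higher, whose RefSeq gene region overlaps CXCL10 and CXCL11. SDAD1, beside CXCL9, was 0.86 log2 units above untreated with IFN-α at 6 h, and NUP54, beside CXCL11, was 0.53 below. Of 10 neighbours of CCL5 on chromosome 17, 0 were 2-fold from untreated with IFN-α at 16 h, where 6.12% of all probes were higher and 3.19% lower. RDM1, the neighbour of CCL5, was 1.04 log2 units below untreated with IFN-λ1 at 6 h, where the brighter CCL5 probe was 0.97 below and the dimmer one 0.26 above. HEATR9, a dim probe, was 1.09 above with IFN-λ4 at 6 h. The neighbours are named by position and value, outside the rule given with the processing.

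Markers of other cells that make or answer these chemokines were checked. Of 11 leukocyte markers, 9 had a probe, and their summed intensity was 20154 units in untreated cells, 15504 and 20956 on the early and late IFN-α arrays, and between 20121 and 22545 on the IFN-λ arrays. PTPRC, the pan-leukocyte marker CD45, read 34.9 to 50.8 units on all arrays, the T cell marker CD3D read 7112 to 10858, and none of the leukocyte markers was at 0 or below on any array. With IFN-α at 16 h, where the brighter CCL5 probe was highest, the B cell marker MS4A1 was 2.99 log2 units above untreated and the natural killer cell marker NKG7 was 1.40 above, while ITGAM was 1.24 below. They were the only ones of the 9 past 2-fold there, 2 higher and 1 lower, where 6.12% of all probes were higher and 3.19% lower. The median difference of the 9 on the IFN-α 16 h array was -0.10 log2 units. Markers past 2-fold were not limited to this array. On the IFN-α 6 h array 2 of the 9 were lower and 0 higher, where 3.71% of all probes were lower. Each IFN-λ4 array had 1 marker higher and 0 lower, where 2.25% (6 h) and 1.28% (16 h) of all probes were higher. On both IFN-λ1 arrays 0 markers were past 2-fold. The part of these markers in the CCL5 value was not tested. The 4 endothelial markers summed to between 3080 and 4497 units and the 5 fibroblast and stellate cell markers to between 3568 and 5745. Both IFN-α arrays were the lowest of the 7 for the endothelial sum, while for the fibroblast sum the late IFN-λ1 and IFN-λ4 arrays lay at 3666 and 3739, below the 3742 of the late IFN-α array.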

How the data were processed

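The authors deposited 1 linear Cy5 intensity per probe for 7 arrays of 31741 probes; how these were scaled, and with which scanner, is not given in the sources used here. Values below 1 were raised to 1 before taking log2. Array medians differed by 0.357 log2 units, above a limit of 0.2, so arrays were quantile normalized. Symbols came from the platform probe table: 24740 probes had 1 symbol, 977 several and 6024 none, and 1948 symbols were updated. The brightest probe stood for genes other than the 4 chemokines.

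A pair of single arrays was called different at 2-fold. limma 3.58.1 (R 4.3.3), with a variance trend and Benjamini-Hochberg adjustment over all probes at 0.05, gave the tests, which were tried on simulated data. Tables and figures used Python 3.11.15, pandas 2.3.3 and matplotlib 3.10.9. Replicates were lacking, so p-values rest on arrays of different conditions, and the number of arrays limits precision.

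The members and gene lists were chosen with earlier results of these data known. Named genes were the members, the 8 genes nearest to each member above the 30th percentile, all receptors analysed here, and the 4 genes of each other list with the largest mean difference. The alternatives were median centring, values as deposited, a filter on dim probes, the mean over a gene's probes, no variance trend, no block, a higher floor, 1.5-fold and 3-fold, and leaving out arrays. Promoter sequences came from RefSeq, which held 3 of the 4 members here; CCL5's is not used here.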

Additional observations from a re-analysis of the deposited data

Results flagged for a closer look

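The change of CXCL10 from 6 h to 16 h ran in opposite directions with the 2 interferon types: it was lower at 16 h with IFN-α, on 1 array a time, and higher with both IFN-λ. The difference of the changes was -2.01 log2 units (adjusted p = 0.0907, limma), which did not pass the threshold of 0.05. Over 6 other settings that value lay between -2.36 and -2.00 (adjusted p 0.0628 to 0.238), and leaving out each IFN-λ array gave -2.32 to -1.69 (adjusted p 0.057 to 0.381).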

How the results depend on the processing

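Pairing by replicate was not possible because each condition had 1 array and the replicate numbers only name the samples. Arrays were matched by time or by interferon instead, in the limma comparisons given with a block. CXCL10 with IFN-α against the IFN-λ passed the threshold with median centring (3.79 log2 units, adjusted p = 0.0336, limma), with values as deposited (3.81, 0.0119), with the mean over a gene's probes (3.77, 0.0435) and with no block (3.77, 0.0359), and missed it with the filter on dim probes (adjusted p = 0.0514). Leaving out each array gave 2.77 to 4.77 log2 units. The count of member probes called in that comparison was 1 under each of those 4 settings and 0 to 2 when each array was left out, the highest without the IFN-α 6 h array. In the comparison of time changes 1 was called with low values raised to the 30th percentile (CXCL9, a dim probe, at 0.047 log2 units), and 0 to 1 when each IFN-λ array was left out; this comparison could not be fitted without either IFN-α array. Of the 2-fold calls, IFN-α at 6 h had 1 higher member with values as deposited, with low values raised, or at 3-fold, and IFN-λ1 at 16 h had 0 higher at 3-fold. At 1.5-fold 1 member was lower with IFN-λ1 at 6 h and 1 at 16 h, 1 was higher with IFN-λ4 at 16 h, and with IFN-α at 16 h 3 were higher in place of 2, CXCL9 being the third.

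Counts over all probes depended on the setting. Treated against untreated gave 19 calls, and 11 to 192 otherwise (192 with low values raised, 47 without the IFN-α arrays). IFN-α against the IFN-λ gave 35, and 5 to 4044 (357 with median centring, 153 as deposited, 4044 without the IFN-α 6 h array). The comparison of time changes gave 53, and 4 to 1355 (384 with the filter, 1355 without the IFN-λ4 6 h array). IFN-λ4 against IFN-λ1 gave 2, and 0 to 7, and 16 h against 6 h gave 0, and up to 1544 without the IFN-α 16 h array. The cause was not tested. On the IFN-α 6 h array the median difference of all probes from untreated was -0.020 after quantile normalization. It was 0.10 with median centring and -0.20 as deposited. CXCL9 and CXCL11 were limited by signal near the bottom of the scale: raising low values set CXCL11 to 0.0 on both IFN-α arrays.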
